A study of Saccharomyces cerevisiae with 2 samples.

Results

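Bud-site selection genes of Saccharomyces cerevisiae were examined in a-type cells exposed to the mating pheromone alpha factor and in mock-treated cells. The genes were 10 of the 5449 S. cerevisiae genes with a named probe set, chosen by name and with earlier results of these data known. RSR1, BUD2 and BUD5 belong to the Rsr1 GTPase module, and BUD3, BUD4 and AXL2 to the axial landmark. BUD8, BUD9, RAX1 and RAX2 belong to the bipolar landmarks. The treated culture had received alpha factor at 50 ng/ml for 3 hours in rich medium. The other culture was mock-treated, and no source used here describes its growth. Both were of 1 strain in the S288c background, MATa with ura3Δ0, leu2Δ0, his3Δ1 and met15Δ0, and with BAR1, which encodes the secreted protease that degrades alpha factor, replaced by KanMX. From each culture, RNA was measured on 1 Affymetrix Yeast 2.0 array, which reads 1 labelled sample with sets of short oligonucleotide probes. With 1 array per group the differences have no replicate check, and no test between the conditions was possible.

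Budding yeast chooses where to bud from marks left at the cell cortex by earlier divisions. In a and alpha cells the axial landmark at the old bud neck places the next bud beside the last one, and in a/alpha diploids landmarks at both poles are used. The landmarks recruit a cycle of the Ras-like GTPase Rsr1, which passes the position to the Cdc42 polarity machinery. A cell that answers alpha factor arrests in G1 and grows a projection. In a pheromone gradient the projection points toward the source. Its position then comes from the receptor's G protein through Far1 rather than from the bud-site landmarks. No source used here describes a gradient in the treated culture, and where its projections formed was not measured.

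The axial landmark genes BUD3, BUD4 and AXL2 were each lower with alpha factor, and so were BUD9 and RAX2 of the bipolar landmarks. The lower ratios ran from 2.29-fold for RAX2 to 5.48-fold for BUD4. None of the 3 Rsr1 module genes reached 2-fold. The bipolar landmark gene BUD8, its partner gene RAX1 and the exchange factor gene BUD5 had log2 ratios between -0.23 and 0.04. In all, 5 of the 10 genes were lower by 2-fold or more, where 3.78% of the 5337 genes above background were lower, and 0 were higher, where 5.51% of those genes were higher. The median log2 ratio of the 10 was -0.90, and that of the 5337 genes was -0.03. Ratios throughout set alpha factor over mock. Lower or higher is said of a gene whose ratio is at least 2-fold and whose level exceeds background in at least 1 array. The calls are rules of size and not tests.

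Levels are log2 expression values of a gene's probe set. Each of the 10 genes was read by 1 probe set. Background was the 95th percentile of 1747 probe sets for the fission yeast S. pombe, at 5.50 in both arrays. The 10 genes lay between 8.35 and 11.75 with alpha factor and between 8.66 and 12.36 in the mock array, so each was above background in both. The S. pombe probe set named rax2 read 4.65 with alpha factor and 4.78 in the mock array, below background. Levels of different genes come from different probes and are not ordered here. Of the 5 genes that the labels give as deleted, 4 were below background in both arrays, and HIS3, whose allele is a partial deletion, was at 12.21 with alpha factor and 11.80 in the mock array. The arrays were alike in overall scale, with median gene levels of 10.65 with alpha factor and 10.67 in the mock array. For 7 control transcripts, the gap between 3' and 5' probe sets shifted by -0.52 to 0.27 (alpha factor minus mock, log2), with a median of 0.03. The 3' probe set of the large ribosomal RNA was at 9.62 with alpha factor and 14.82 in the mock array, and the part of this difference in the ratios below was not tested.

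**Figure D1:**
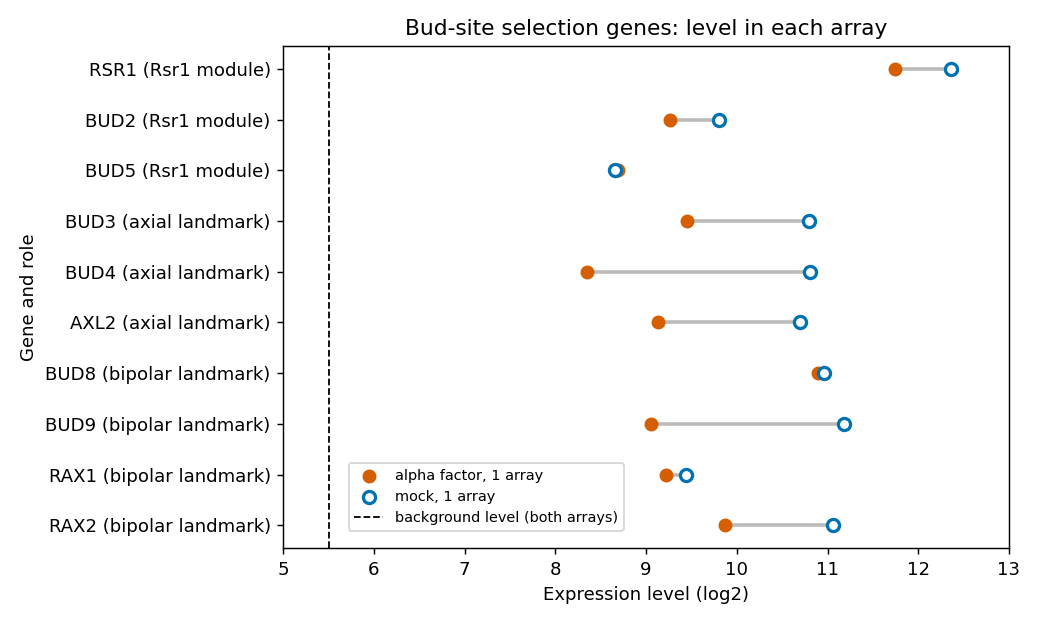
Expression level (log2, x axis) of the 10 bud-site selection genes, with a filled point for the alpha-factor array, an open point for the mock array and a dashed line at the background level of 5.50. BUD3, BUD4, AXL2, BUD9 and RAX2 have long gaps with the alpha-factor point on the low side, and the points of BUD5 and BUD8 nearly coincide.

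The Rsr1 module carries the position signal. RSR1, also called BUD1, encodes the Ras-like GTPase itself. It was at 11.75 with alpha factor and 12.36 in the mock array, a log2 ratio of -0.61 or 1.52-fold lower, short of the 2-fold rule. BUD2 encodes the GTPase-activating protein that returns Rsr1 to its GDP form, and it was at 9.27 with alpha factor and 9.80 in the mock array, a log2 ratio of -0.54. BUD5 encodes the exchange factor that loads Rsr1 with GTP, and it was at 8.69 with alpha factor and 8.66 in the mock array, a log2 ratio of 0.04. Of this regulator pair, the activating-protein gene BUD2 had the lower ratio, with a log2 difference of -0.57 from BUD5. The RSR1 ratio had 9.78% of the genes above background below it, the BUD2 ratio 12.5% and the BUD5 ratio 58.0%, so BUD5 sat near the middle of the array and the other two in its lower part. At a rule of 1.5-fold, RSR1 was the 1 gene added to the lower set, and 10.7% of the genes above background were lower at that rule.

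The axial landmark was lower in each of its 3 genes. BUD4 encodes an anillin-like protein of the bud neck that associates with the septin ring and brings the other landmark proteins there. Its level was 8.35 with alpha factor and 10.80 in the mock array, a log2 ratio of -2.45, and only 28 of the 5337 genes above background had a lower ratio. AXL2, also called BUD10, encodes the transmembrane glycoprotein of the landmark. It was at 9.13 with alpha factor and 10.70 in the mock array, a log2 ratio of -1.56 or 2.95-fold lower, with 94 genes at a lower ratio. BUD3 encodes a bud-neck protein that also acts as an exchange factor for Cdc42. It was at 9.45 with alpha factor and 10.80 in the mock array, a log2 ratio of -1.35 or 2.55-fold lower, with 117 genes at a lower ratio. The signal of these genes with alpha factor was 18.2% of the mock signal for BUD4, 33.9% for AXL2 and 39.2% for BUD3. The BUD4 ratio was below that of AXL2 by a log2 difference of -0.89 and below that of BUD3 by one of -1.10, while AXL2 and BUD3 differed by -0.21. The S. pombe log2 ratios had an SD of 0.19, which describes signal near background and not the spread between cultures.

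The bipolar landmark genes split by gene. BUD9 encodes the transmembrane landmark of the proximal pole, the end at which the cell was born, and its mRNA is known to peak in late G1. It was at 9.05 with alpha factor and 11.19 in the mock array, a log2 ratio of -2.13 or 4.39-fold lower. BUD8 encodes the related landmark of the distal pole, and its mRNA is known to peak in G2 and mitosis. It was at 10.90 with alpha factor and 10.96 in the mock array, a log2 ratio of -0.06. The alpha-factor signal was 22.8% of the mock signal for BUD9 and 96.1% for BUD8, a difference in log2 ratio of -2.08 between these relatives. BUD9 and BUD4 were the 2 genes of the 10 that were lower by 4-fold or more, where 1.01% of the genes above background were.

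RAX1 and RAX2 encode membrane proteins that work together, place Bud8 and Bud9 at the poles and mark division sites over several generations. RAX2 was at 9.87 with alpha factor and 11.06 in the mock array, a log2 ratio of -1.19 or 2.29-fold lower, with 144 genes at a lower ratio. RAX1 was at 9.22 with alpha factor and 9.44 in the mock array, a log2 ratio of -0.23. The RAX2 ratio was therefore below the RAX1 ratio by a log2 difference of -0.97, so that neither pair of bipolar partners shared a call. The median log2 ratio was -0.71 over the 4 bipolar genes, -1.56 over the 3 axial genes and -0.54 over the 3 Rsr1 module genes.

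**Figure D2:**
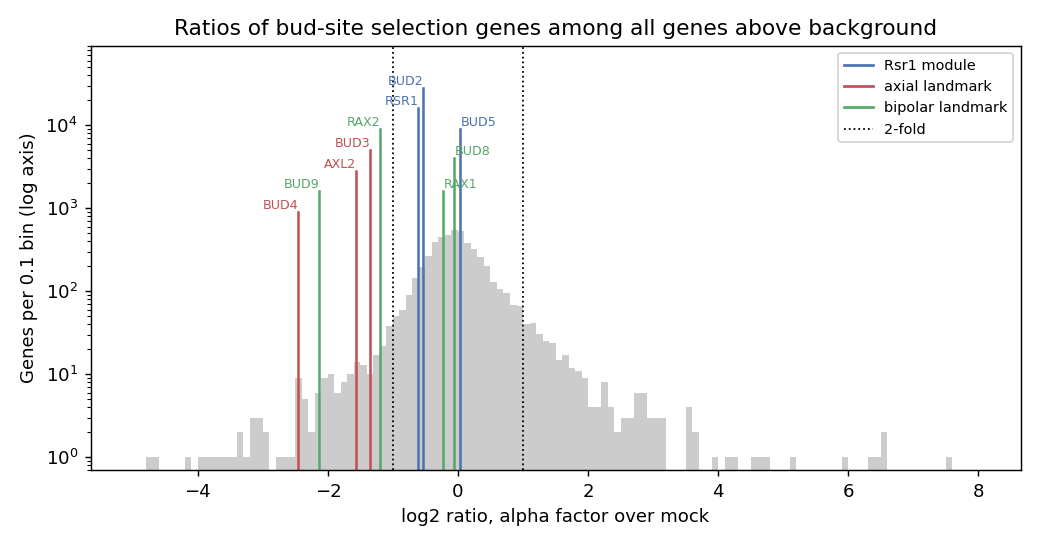
Histogram of the log2 ratio, alpha factor over mock, of the 5337 genes above background (x axis, bins of 0.1, number of genes on a log y axis), with a labelled line for each bud-site selection gene coloured by role and dotted lines at 2-fold. BUD4 at -2.45 and BUD9 at -2.13 stand in the thin lower tail, and BUD8 at -0.06 and BUD5 at 0.04 stand at the peak.

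Genes that act with the axial landmark did not share its ratios. AXL1 encodes a haploid-specific protease that is needed both for axial budding and for the maturation of the pheromone a-factor. It was at 11.51 with alpha factor and 10.52 in the mock array, a log2 ratio of 0.99, just short of the 2-fold rule, which it passed when either the S. cerevisiae or the S. pombe median was set to 0 or a loess curve was removed. The AXL2 ratio was below that of AXL1 by a log2 difference of -2.55. ERV14, which encodes an export receptor of the endoplasmic reticulum, and PMT4, an O-mannosyltransferase gene, complete this list of 3. PMT4 had a log2 ratio of -0.25, and of the list 0 were higher and 0 lower. The 5 septin genes encode the filaments of the bud neck to which Bud3 and Bud4 bind, and 0 of them were called. Their log2 ratios ran from -0.28 for CDC11 to 0.17 for CDC10, with a median of -0.14. Lists this short would hold few calls or none at the shares over the genes above background, 3.78% lower and 5.51% higher.

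The Cdc42 module that receives the Rsr1 signal had 1 lower and 1 higher gene among 12, with a median log2 ratio of 0.27. The lower gene was GIC1, a Cdc42 effector gene, at 7.48 with alpha factor and 10.49 in the mock array. Among 7 genes of the polarisome, the formins and their partners, 0 were called, and the extremes were SPA2 with a log2 ratio of -0.91 and MSB4 with 0.89. Genes that are numbered BUD but are not among the 10 comprised 14 measured genes, many of them known mainly from random budding of a deletion mutant. Of these 0 were called, with a median log2 ratio of -0.22. The largest ratios in size were those of BUD23, a methyltransferase gene of ribosome synthesis, at -0.95, BUD27 at -0.94 and BUD7, a gene of protein export to the cell surface, at 0.58. BUD6 belongs to both of these last lists. The Cdc42, polarisome and other BUD-numbered lists are short. Few calls would fall in them at the shares over the genes above background, 3.78% lower and 5.51% higher.

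**Figure D3:**
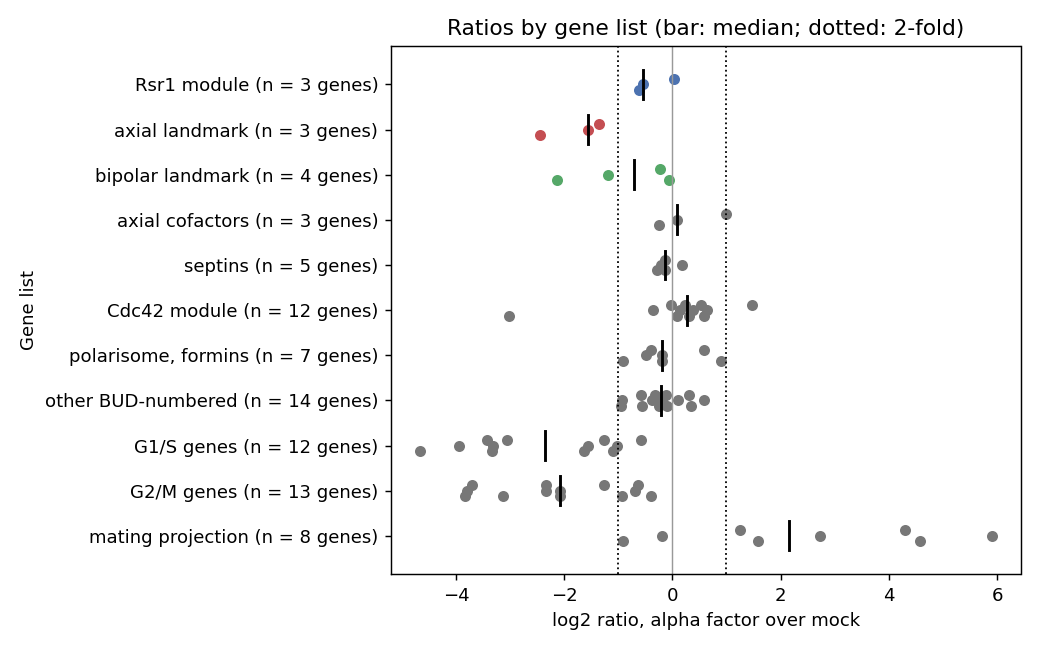
Log2 ratio, alpha factor over mock (x axis), of each gene (point) by gene list, with a bar at the median and dotted lines at 2-fold. All 3 axial landmark genes lie left of the lower 2-fold line, the septins lie between -0.28 and 0.17, and the G1/S and G2/M lists have medians of -2.35 and -2.08.

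Most genes of the cell-cycle lists, which were chosen with earlier results of these data known, were lower with alpha factor. Over the 5337 genes above background, 3.78% were lower and 5.51% higher. Of 12 genes timed to the G1/S transition, 11 were lower and 0 higher, with a median log2 ratio of -2.35 and the G1 cyclin gene PCL1 lowest at -4.67. Of 13 measured genes of the Clb2 cluster of G2 and mitosis other than BUD4, which is known as a member of that cluster, 9 were lower and 0 higher, with a median of -2.08 and the cytokinesis gene HOF1 lowest at -3.83. The BUD4 ratio of -2.45 lay inside the range of that list, which ran from -3.83 to -0.40. The BUD8 ratio of -0.06 lay above that whole range. The BUD9 ratio of -2.13 lay inside the range of the G1/S list, which ran from -4.67 to -0.59. The BUD9 ratio also lay inside the Clb2 cluster range, the BUD4 ratio also inside the G1/S range, and BUD8 above both. These ranges overlap and do not tell the lists apart. In bulk RNA, fewer cells at a stage of the cycle and less of an mRNA per cell cannot be told apart. The part of cell-cycle stage in the ratios of the bud-site genes was not tested. Of 8 genes of mating-projection polarity and fusion, 6 were higher and 0 lower, with a median log2 ratio of 2.16. Those not called were SPA2 at -0.91 and PEA2 at -0.19, which also belong to the polarisome list.

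Markers of cell type were set beside these values because a cells bud axially. Of 7 a-cell markers, 6 were above background, and the exception was the deleted BAR1, at 3.63 with alpha factor and 3.83 in the mock array. Of the 7, 2 were higher, ASG7 with a log2 ratio of 4.71 and the agglutinin subunit gene AGA2 with 1.27, and the summed level of the list was 16.70 with alpha factor and 15.74 in the mock array. The alpha-factor receptor gene STE2 was at 14.25 with alpha factor and 13.72 in the mock array. Of 4 alpha-cell markers, 2 were higher, MF(ALPHA)2 with a log2 ratio of 2.28 and STE3 with 1.76, and their summed level was 11.06 with alpha factor and 10.09 in the mock array. All 4 alpha-cell markers were above background in at least 1 array, as were 5337 of all 5449 genes. SAG1 was at 9.91 with alpha factor and 9.53 in the mock array. The major alpha-factor gene MF(ALPHA)1 was near background, at 5.93 with alpha factor and 5.85 in the mock array. Of 6 meiosis genes, chosen as markers of a/alpha diploids, 1 was higher, SPO11 with a log2 ratio of 2.86. All 6 meiosis genes were above background in at least 1 array, as nearly all genes were. Their summed level was 11.10 with alpha factor and 10.40 in the mock array. The part of these markers in the bud-site ratios was not tested.

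The genes beside the 10 on their chromosomes, by the gene order of the reference annotation R64, were compared with them. Of 20 neighbours, 17 were measured, and 0 of those were called, with log2 ratios from -0.45 to 0.78. So few genes would hold few calls at the shares over the genes above background, 3.78% lower and 5.51% higher. The 5 lower bud-site genes had 9 measured neighbours with log2 ratios between -0.45 and 0.56. BUD4, at -2.45, lies between JSN1, which had a log2 ratio of 0.39, and FIP1, which had one of -0.27. BUD9 follows KSS1, a MAP kinase gene of filamentous growth and mating, which had a log2 ratio of 0.56. BUD5 overlaps MATALPHA2 in the reference genome. That genome is of the alpha type, the strain here is MATa, and MATALPHA2 was not analysed here.

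**Figure D4:**
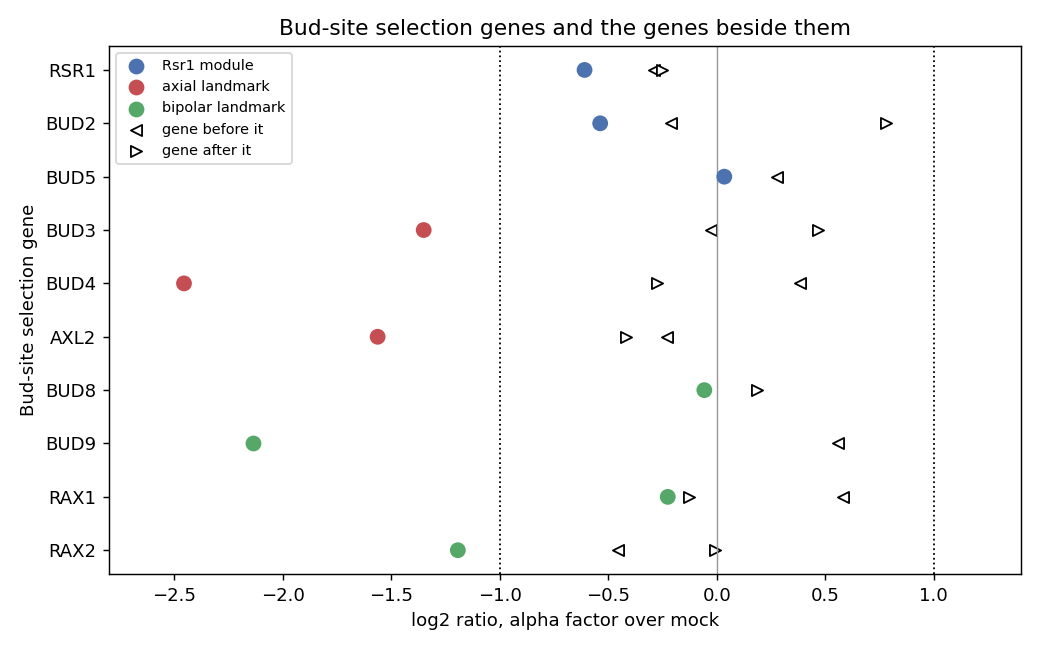
Log2 ratio, alpha factor over mock (x axis), of each bud-site selection gene (coloured point, by role) and of the measured genes before and after it on the chromosome (open triangles), with dotted lines at 2-fold. The neighbours lie between -0.45 and 0.78, and BUD3, BUD4, AXL2, BUD9 and RAX2 lie below -1.

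The genes whose ratio was nearest to each lower gene, among genes above background in both arrays and outside the lists, were found over the 2 arrays. Such likeness rests on a single ratio and many genes share one, between 10 genes within 0.1 of BUD4 and 41 within 0.1 of RAX2. Nearest to BUD4 were VCX1, a vacuolar calcium exchanger gene, at -2.46 and the histone gene HTB2 at -2.45. Nearest to BUD9 were ATF2, an alcohol acetyltransferase gene, and the histone gene HTA2, both at -2.14, HTA2 as the mean of 2 probe sets. CTR1, a copper transporter gene, at -1.56 and BBP1, a spindle pole body gene, at -1.57 were nearest to AXL2. SUN4, a cell wall gene of septation, at -1.35 and YKL183C-A at -1.34 were nearest to BUD3, and SIC1, the gene of a cyclin-dependent kinase inhibitor, at -1.19 and ATG41, an autophagy gene, at -1.20 to RAX2.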

How the data were processed

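Affymetrix Yeast 2.0 arrays were hybridised with biotin-labelled total RNA, per the labels' protocols. The deposited values are treated as log2 expression, because they lie between 3.32 and 15.19 and, once sorted, differ between the arrays by no more than 0.092. Per the submitters' processing notes, the authors worked with the affy package. How it corrected background, normalized and summarised probes, and in which version, was not given in the sources used here. A scaling that makes arrays this alike removes any change in total mRNA. Of 10928 probe sets, 5498 were matched by gene ID to S. cerevisiae genes in the RefSeq table of R64, 1747 were taken as S. pombe and 3683 were unnamed. Groups came from the source names. The mock sample's description field, a repeat of the treated sample's, was set aside. Where a gene had several probe sets, the mean of their log2 values was taken, and no pseudocount was added in the values reported.

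The genes and lists were chosen with earlier results of these data known. All 10 genes are named, with at most 2 genes of each other list, 3 of the other BUD-numbered genes and the 2 genes nearest in ratio to each gene called. The deleted genes BAR1 and HIS3 and the marker genes STE2, SAG1 and MF(ALPHA)1 were named after their values were seen. So were BUD6, CDC10, ERV14, PEA2 and the neighbouring genes. Some items of the lists are not reported here. With 1 array per group the number of arrays limits the precision, and no p-value is given. The calling was tested on simulated data. Coordinates are left out because the array values come with no genome build. Alternatives were 2 centrings, quantile normalization, removal of a loess curve (span 0.3), a pseudocount of 32, fold rules of 1.5 and 4, other background levels, and the brightest probe set in place of the mean. The software was Python 3.11.15 with pandas 2.3.3, numpy 2.4.6 and statsmodels 0.14.6.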

Additional observations from a re-analysis of the deposited data

How the results depend on the processing

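No paired analysis was possible because each condition had 1 array. Under the 6 alternative ways of forming the ratios, BUD3, BUD4, AXL2, BUD9 and RAX2 each kept a ratio of 2-fold or more on the lower side. The brightest probe set could not change these ratios, because each of the 10 genes had 1 probe set. The 2 centrings shift all genes by the same small amount, and quantile normalization acts on arrays already alike. These alternatives are thus a weak check. BUD4 ranged from -2.47 to -2.34 and RAX2, the nearest of them to the rule, from -1.21 to -1.15. The median over the 10 genes ranged from -0.92 to -0.85. RSR1 ranged from -0.63 to -0.54, and with the loess curve removed BUD2 had a lower ratio than RSR1. The signs of BUD5 and BUD8 were not fixed, since BUD5 ranged from -0.0042 to 0.069 and BUD8 from -0.057 to 0.0034. A 4-fold rule left 2 of the 10 genes lower, by construction of the stricter rule. Of the other lists, examined in this way after the data were seen, the axial cofactors had 1 higher gene (AXL1) under both centrings and under removal of the loess curve, and the G1/S list had 10 lower genes in place of 11 under both centrings and with the pseudocount of 32. The S. pombe SD of 0.19 stood in for a replicate spread in judging whether a value moved. This SD describes signal near background and not the spread between cultures, so those judgements are rules of size. With 1 array per condition, a difference between cultures unrelated to alpha factor cannot be told apart from its effect.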
